A study of Homo sapiens with 4 samples.

Results

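Long noncoding RNAs are transcripts that carry no long open reading frame and act as RNA, in the nucleus as scaffolds of nuclear bodies or regulators of nearby genes, or in the cytoplasm as binding sites for proteins and microRNAs. Described here are 10 of the best known, MALAT1, NEAT1, H19, MEG3, PVT1, TUG1, NORAD, HOTAIR, DANCR and KCNQ1OT1. They were taken by gene symbol from the deposited table, and earlier results of these data were known when they were chosen. Of the 61806 genes of that table, 14745 are of a long noncoding type in GENCODE release 29.

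RNA was sequenced from JJ012, a human chondrosarcoma cell line, and from 143B, a human osteosarcoma cell line, both grown detached in suspension. Cells of each line were either left untreated (control) or given 1 mM melatonin, the hormone of the pineal gland, for 72 h. There was 1 library for each of the 4 conditions, each from RNA bound to oligo(dT) beads, and no replicate. All values below therefore compare libraries. The 95% intervals (exact, Clopper-Pearson) cover counting error only, and no test between conditions could be made.

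Library totals were between 15889564 and 19218343 counts, so that 3 counts, the floor used here, correspond to between 0.156 and 0.189 CPM (counts scaled to the library total). The mitochondrial genome gave 6.78% of all counts in control and 4.35% in melatonin-treated JJ012 cells, and 1.63% and 2.46% in 143B cells. As a set, the marker genes did not separate the lines by their labels. Of 6 measured chondrocyte markers 2 were higher and 2 lower in control JJ012 than in control 143B. Of 7 osteoblast markers 2 were higher and 2 lower. In the controls SOX9, a cartilage transcription factor, had 1138 counts in JJ012 and 967 in 143B, and RUNX2, an osteoblast transcription factor, had 475 and 557. The cartilage matrix genes COL2A1 and ACAN had at most 4 counts in JJ012, and the osteoblast genes SP7, IBSP and DMP1 had at most 1 in 143B. SPP1 and COL1A1, from the osteoblast list, were higher in control JJ012 (11061 and 1891 counts) than in control 143B (46 and 70). Other markers followed the labels. The chondrocyte markers SOX5 (150 and 17 counts) and COL11A2 (236 and 61) were higher in control JJ012 than in control 143B. The osteoblast marker DLX5 had 0 counts in control JJ012 and 48 in control 143B.

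Levels were compared between genes as FPKM, the counts scaled to exonic length and to the library total. Changes were taken from CPM. A gene with at least 20 counts in at least 1 library of a pair is said to have risen or fallen where the log2 ratio of its CPM was at least 0.58 in size, the fold threshold of the study's methods. Because bulk RNA was measured, fewer cells of a kind and less of an RNA per cell cannot be told apart.

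The RNAs differed widely in level. The highest in JJ012 was NEAT1, the architectural RNA around which paraspeckles form in the nucleus, at 177.13 FPKM in the control and 277.98 FPKM after melatonin. Ranked by FPKM, it was number 138 of the 31696 genes with any count in control JJ012 and number 46 after melatonin. In 143B the highest was NORAD, a cytoplasmic RNA that binds Pumilio proteins, at 291.32 FPKM in the control and 274.67 FPKM after melatonin. TUG1, an RNA first described in the developing retina, was the most even, between 23.54 and 31.39 FPKM in the 4 libraries. At the low end, MEG3 (chr14:100779410-100861031, plus strand), a maternally expressed RNA of an imprinted cluster, had 0 counts in every library, and the limit of 3 counts lies between 0.156 and 0.189 CPM, depending on the library.

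**Figure D1:**
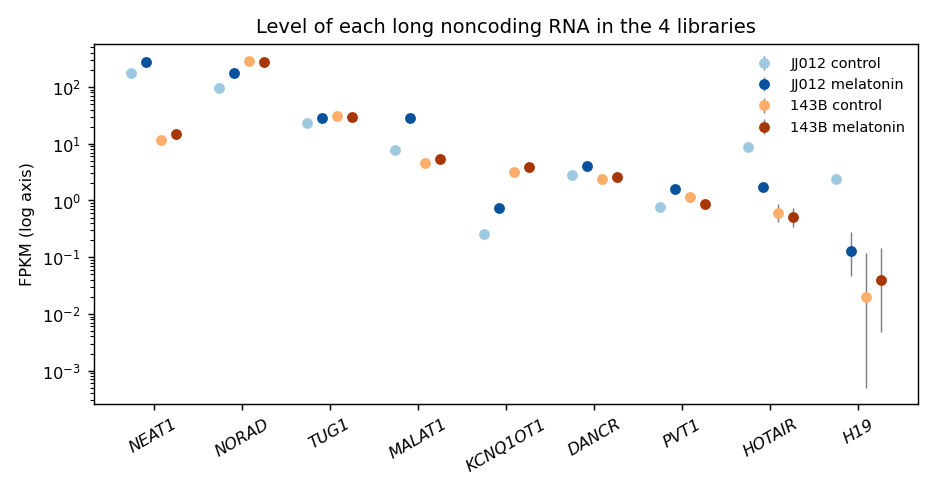
Level of 9 long noncoding RNAs in the 4 libraries, in FPKM on a log axis, with exact 95% Poisson intervals (grey), most of which are smaller than the points. NEAT1 and NORAD lie above the others in JJ012, NORAD and TUG1 in 143B; MEG3, with 0 counts in all libraries, is not drawn.

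In control JJ012 the order by FPKM was NEAT1 (177.13), NORAD (95.41), TUG1 (23.54), HOTAIR (8.69), MALAT1 (7.71), DANCR (2.81), H19 (2.41), PVT1 (0.77) and KCNQ1OT1 (0.26). The counting intervals of HOTAIR and MALAT1 overlapped, as did those of DANCR and H19. After melatonin MALAT1 stood beside TUG1, at 28.34 and 28.74 FPKM with overlapping intervals, and HOTAIR (1.73) beside PVT1 (1.61), also with overlapping intervals. In both 143B libraries the order was NORAD, TUG1, NEAT1, MALAT1, KCNQ1OT1, DANCR, PVT1, HOTAIR and H19. The intervals of neighbours in this order did not overlap in either library.

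These levels depend on the length by which the authors divided. The exonic length in the table joins all annotated exons of a gene, and for PVT1 it was 14.97 times, for DANCR 11.3 times the length of the longest GENCODE 29 transcript. Divided by that transcript instead, DANCR came to 31.7 and PVT1 to 11.6 on the same scale in control JJ012, in place of 2.81 and 0.77 FPKM. The other RNAs with counts moved by at most 1.36 times. Ratios between libraries do not depend on this length.

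Within JJ012, 9 of the 10 RNAs reached 20 counts, and of these 5 rose and 2 fell after melatonin. Of all 17527 genes measured this way in JJ012, 49.7% passed the same threshold, 21.7% upward and 28.0% downward. With TPM scaling 62.0% of the genes that passed were upward, in place of 43.6%. Among 2466 long noncoding genes 61.4% passed, 19.6% upward and 41.8% downward. The median log2 ratio of the 9 RNAs was 0.65, beside -0.07 for all genes and -0.38 for the long noncoding genes. Less the trend with exonic length, given further down, the median of the 9 was 0.34. The all-gene median in JJ012 also differed by level, from -0.54 below a mean of 5 CPM to 0.125 at 20 to 100 CPM and 0.15 at 100 CPM or more. In 143B, 8 RNAs reached 20 counts and 0 of them rose or fell, where 20.5% of 15412 genes did (11.3% upward and 9.24% downward), and 40.1% of 1623 long noncoding genes. These shares were smaller among abundant genes, and all 8 RNAs but HOTAIR were above 20 CPM in both 143B libraries. Of 5070 genes with a mean of 20 to 100 CPM there, 4.54% rose and 2.88% fell. Of 2230 genes at 100 CPM or more, 2.56% rose and 2.11% fell. Together the 10 RNAs took 0.496% of the counts in control JJ012 and 0.798% after melatonin, and 0.255% and 0.257% in 143B.

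**Figure D2:**
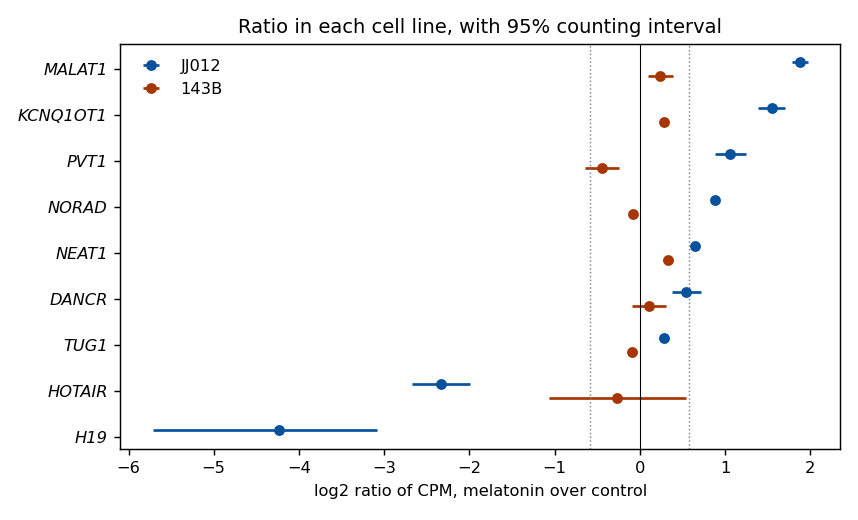
Log2 ratio of CPM, melatonin over control, of each RNA in JJ012 (blue) and 143B (brown), with exact 95% counting intervals; dotted lines mark the threshold of 0.58. In JJ012, MALAT1, KCNQ1OT1, PVT1, NORAD and NEAT1 lie beyond the upper line and HOTAIR and H19 beyond the lower; in 143B every point lies between the lines, and H19 is absent because it had at most 2 counts there.

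MALAT1 and NEAT1 are neighbours on chromosome 11 (hg38). MALAT1 (ENSG00000251562), at chr11:65497688-65506516 on the plus strand, resides in nuclear speckles, the stores of splicing factors. NEAT1 (ENSG00000245532) lies at chr11:65422774-65445540 on the same strand. MALAT1 is not polyadenylated in the usual way. Its end is cut by RNase P just past a run of A that folds back onto U-rich stretches, and a small tRNA-like RNA is released. The stretch around this run is shown because the libraries were made with oligo(dT), with the run of A in capitals (chr11:65506038-65506150, plus strand, GENCODE 29 transcript, 5′ to 3′).

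MALAT1 end: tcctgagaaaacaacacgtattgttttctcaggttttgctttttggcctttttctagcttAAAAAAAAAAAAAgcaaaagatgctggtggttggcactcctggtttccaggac

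The run was 13 bases long, and 359 bases of the annotated transcript followed it. Runs of A at least as long occurred in 26.4% of 1273 transcripts of similar length. The longest run was 22 bases in NEAT1, 18 in TUG1, 29 in KCNQ1OT1, 10 in NORAD and 3 in DANCR. Whether such runs were bound by the beads was not tested.

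MALAT1 had 1308 counts in control JJ012, 4040 after melatonin, 639 in control 143B and 816 after melatonin. It was the RNA with the largest rise of the 10 in JJ012, by 3.68-fold (log2 ratio 1.88, 95% interval 1.79 to 1.97), and 375 of the 17527 genes had a higher ratio. In 143B its log2 ratio was 0.24 (0.09 to 0.39), above 0 but below the threshold. RefSeq (GRCh38.p14) gives MALAT1 2 promoter windows of 300 bases. The upstream one (chr11:65497488-65497787, plus strand) held 37 CpG dinucleotides against a median of 14 over all 35116 windows, and the downstream one (chr11:65498795-65499094) held 14, the median itself. The upstream window is shown with CpG in capitals, and that of H19, which fell in JJ012, is given further down. The windows of TUG1 and DANCR, which did not pass the threshold in JJ012, held 28 and 27 CpG. That of NORAD, which rose there, held 23. A link between CpG content and the ratios was not tested.

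MALAT1 promoter: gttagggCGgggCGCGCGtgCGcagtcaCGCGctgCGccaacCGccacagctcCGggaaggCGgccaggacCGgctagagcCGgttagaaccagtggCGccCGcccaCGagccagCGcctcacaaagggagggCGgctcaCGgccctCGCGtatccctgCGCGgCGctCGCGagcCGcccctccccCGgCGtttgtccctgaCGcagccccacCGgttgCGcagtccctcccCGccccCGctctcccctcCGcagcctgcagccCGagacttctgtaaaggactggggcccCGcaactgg

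NEAT1 had 77500 counts in control JJ012, 102170 after melatonin, 4258 in control 143B and 5784 after melatonin. It rose 1.57-fold in JJ012 (log2 ratio 0.65, 0.64 to 0.66), and its log2 ratio was 0.33 (0.27 to 0.39) in 143B. Once the trend of the ratios with exonic length was removed, the value in JJ012 was 0.27, which does not pass. The NEAT1 level thus separated the cell lines far more than the treatment did.

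The MALAT1 count carries a reservation. TALAM1, an annotated antisense gene, covers 81.6% of the MALAT1 span on the other strand, and it had at most 6 counts in any library. Whether the authors counted by strand is not given in the sources used here, so that reads from the shared stretch cannot be assigned to either gene with certainty. NEAT1 has no annotated gene on the opposite strand in the table. For MALAT1 the effect on level and ratio was not tested.

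Proteins of the bodies that these RNAs occupy moved less uniformly. Of 13 paraspeckle proteins, 2 fell after melatonin in JJ012, PSPC1 (log2 ratio -0.80) and the RNA-binding RBMX (-0.64), and 0 rose, where 28.0% of all genes fell and 21.7% rose. The median was -0.01. The most abundant of them, HNRNPK, had a log2 ratio of -0.10. In 143B 0 of the 13 passed the threshold, where 20.5% of all genes did. Of 9 nuclear speckle proteins, 3 rose in JJ012. These were SRRM2 (10198 to 20384 counts, log2 ratio 1.25), a scaffold of the speckle, SON (1.01), likewise a scaffold, and SRRM1 (0.96), a splicing coactivator. SRSF3, a splicing factor, fell (-0.65), and the median was 0.18. In 143B 0 of the 9 passed the threshold, where 20.5% of all genes did.

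Of the 5 measured genes listed around MALAT1 and NEAT1, 0 rose and 1 fell in JJ012, LTBP3, a binding protein of latent TGF-beta (log2 ratio -0.98). The shares over all genes there were 21.7% and 28.0%. EHBP1L1, the highest of them by FPKM, had a log2 ratio of -0.57. In 143B FRMD8 rose (0.68), where 11.3% of all genes rose. 

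NORAD (ENSG00000260032) occupies 1 exon at chr20:36045618-36051018 on the minus strand (hg38), and is known for sequestering Pumilio proteins such as PUM2, repressors that recognise UGUANAUA in RNA. The longest GENCODE 29 transcript of NORAD, 5339 bases, held 15 matches to this motif (TGTANATA in DNA letters, searched on the transcript strand only). They were 10 of TGTATATA, 4 of TGTAAATA and 1 of TGTACATA. Only 0.0688% of the 4358 transcripts within a similar length held as many, and 10.2% of 206694 transcripts held any. The following matches, with the motif in capitals, show its repeated form and a pair set 9 bases apart (5′ to 3′, minus strand of chromosome 20, hg38).

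NORAD site at chr20:36049803-36049832: cctcactactgTGTATATAgttgacaatgc

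NORAD site at chr20:36049702-36049731: aaatcacatttTGTAAATAcctttttgtta

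NORAD site at chr20:36049492-36049521: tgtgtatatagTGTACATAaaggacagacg

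NORAD site at chr20:36047971-36048000: caaccctactgTGTATATAgcggacaaact

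NORAD site at chr20:36047668-36047697: ttactgtgctgTGTATATAgtgtatataag

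NORAD site at chr20:36047659-36047688: tgtgtatatagTGTATATAagcggacatag

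A match describes the sequence and no binding was measured. Among the other RNAs, KCNQ1OT1 held 9 matches in 91667 bases, NEAT1 6, HOTAIR 3, TUG1 2 and MEG3 1, and MALAT1, H19, PVT1 and DANCR held none.

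NORAD had 9903 counts in control JJ012, 15366 after melatonin, 25001 in control 143B and 25464 after melatonin. It rose 1.85-fold in JJ012 (log2 ratio 0.89, 0.85 to 0.92). In 143B its log2 ratio was -0.08 (-0.11 to -0.06), slightly below 0. PUM2 rose in JJ012 from 1852 to 2913 counts (log2 ratio 0.90), and its log2 ratio was -0.05 in 143B. Of the other proteins described here as binding NORAD, RBMX fell in JJ012 as given above, and KHDRBS1, an RNA-binding adaptor with the highest FPKM of these, had a log2 ratio of 0.10 there and of -0.40 in 143B.

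TUG1 (ENSG00000253352), at chr22:30969245-30979395 on the plus strand, had 4593 counts in control JJ012, 4709 after melatonin, 5063 in control 143B and 5144 after melatonin. Its log2 ratio was 0.29 (0.23 to 0.35) in JJ012 and -0.09 (-0.14 to -0.03) in 143B, both within the threshold. DANCR (ENSG00000226950), at chr4:52712325-52723623 on the plus strand and an RNA first described as holding back differentiation, had 550, 675, 382 and 445 counts in the same order. Its log2 ratio of 0.55 (0.38 to 0.71) in JJ012 fell just short of the threshold, and that of 0.11 in 143B had an interval from -0.09 to 0.31, which holds 0. LINC01618 overlaps 99.4% of the DANCR span on the same strand, with at most 3 counts in any library, and an unnamed gene with 0 counts overlaps 85.5% on the other strand, so that reads shared with them cannot be assigned with certainty.

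PVT1 (ENSG00000249859), on chromosome 8 beside the MYC oncogene, had 378 counts in control JJ012, 663 after melatonin, 467 in control 143B and 371 after melatonin. It rose 2.09-fold in JJ012 (log2 ratio 1.06, 0.88 to 1.25). In 143B the log2 ratio was -0.44 (-0.64 to -0.24), on the other side of 0. MYC itself, named as its neighbour after its values were seen, had 252, 755, 77 and 138 counts in the same order and log2 ratios of 1.83 in JJ012 and 0.73 in 143B, so that it rose in both lines. GSDMC, a gasdermin on the far side of PVT1, fell in JJ012 from 154 to 22 counts (-2.56) and had at most 1 count in 143B. Of the 11 measured genes listed around TUG1, NORAD, DANCR or PVT1, 4 fell and 3 rose after melatonin in JJ012 (median 0.03), and 2 rose and 1 fell in 143B. Over all genes, 28.0% fell and 21.7% rose in JJ012, and 11.3% rose and 9.24% fell in 143B. Not all of the listed genes adjoin the RNA. The most abundant, CPNE1, had log2 ratios of -0.037 and -0.0035. PHF20, which lies between CPNE1 and NORAD, was among those that rose in JJ012 (1456 to 2551 counts, 1.06). LRRC66, listed around DANCR, was the gene that fell in 143B (-1.11).

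HOTAIR (ENSG00000228630) is transcribed from the HOXC cluster (chr12:53962308-53974956, minus strand), on the strand opposite to the HOXC genes, and is known for binding the Polycomb complex PRC2 and the LSD1 complex. It had 515 counts in control JJ012, 86 after melatonin, 30 in control 143B and 27 after melatonin. It fell 5.03-fold in JJ012 (log2 ratio -2.33, -2.68 to -1.999), lower than all but 593 of the 17527 genes. In 143B, where the level was already low, the log2 ratio was -0.26 with an interval from -1.07 to 0.54, so that no change was detectable at this depth.

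The cluster around HOTAIR fell with it. Among its 11 measured HOXC neighbours in JJ012, 10 fell and 0 rose, where 28.0% of all genes and 41.8% of long noncoding genes fell. Their median log2 ratio was -1.31, beside -0.07 for all genes. Summed over the 13 listed genes, their level went from 327 to 173 CPM. The antisense RNA HOXC-AS3 fell most (249 to 52 counts, -2.01), and HOXC10, a positional transcription factor and the most abundant gene of the cluster, fell from 3098 to 1682 counts (-0.63). HOXC13 alone did not pass, at -0.51. In 143B, 2 of 9 measured neighbours fell, HOXC6 (-0.62) and HOXC-AS1 (-0.88), with a median of -0.15. There 9.24% of all genes fell, and the median was 0.04. HOTAIR shares 1831 bases with HOXC11 on the other strand, and HOXC11 went from 319 to 126 counts in JJ012 (-1.09), so that the reads of the shared stretch cannot be assigned with certainty.

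**Figure D3:**
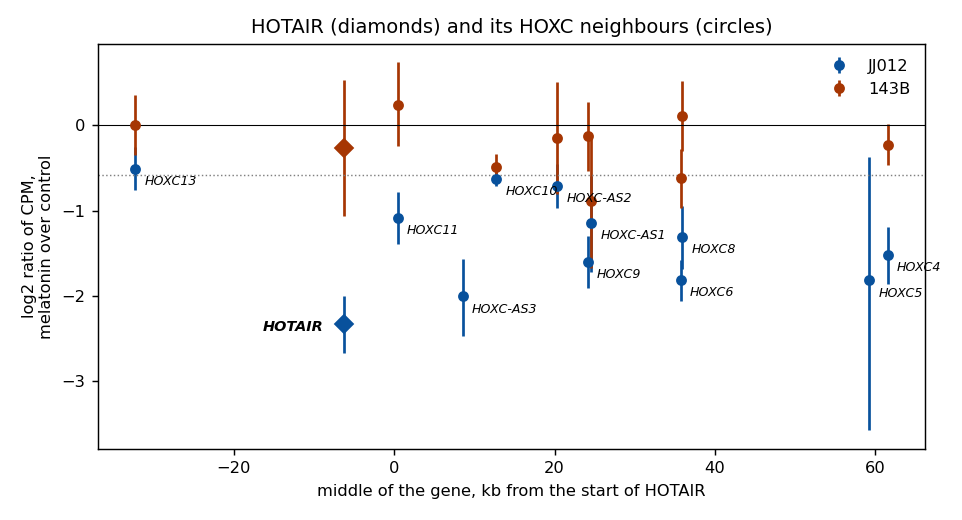
Log2 ratio of CPM, melatonin over control, with 95% counting intervals, of HOTAIR (diamonds) and its measured HOXC neighbours (circles), against the distance in kb of the middle of the gene from the start of HOTAIR; blue, JJ012; brown, 143B; the dotted line marks -0.58. In JJ012 all genes but HOXC13 lie below the line and HOTAIR lies lowest; in 143B the points scatter about -0.15.

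Of 6 genes for proteins named as partners of HOTAIR, 3 rose and 0 fell in JJ012. Of all genes there, 21.7% rose and 28.0% fell, so that 49.7% passed in either direction. Those that rose were the repressor REST (log2 ratio 0.99), its corepressor RCOR1 (0.74) and SUZ12, a PRC2 subunit (0.80). EZH2, the methyltransferase of PRC2, had a log2 ratio of -0.14 in JJ012 and -0.20 in 143B. In 143B 0 of the 6 passed the threshold, where 20.5% of all genes did.

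H19 (ENSG00000130600) and KCNQ1OT1 (ENSG00000269821) are imprinted RNAs of the same stretch of chromosome 11, at chr11:1995166-2001470 and chr11:2608328-2699994, both on the minus strand (hg38). H19, made from the maternal copy and shut on the copy that expresses IGF2, is the host of miR-675. KCNQ1OT1 is made from the paternal copy, antisense to KCNQ1, and silences genes nearby. The mature forms of miR-675 from RefSeq (GRCh38.p14) are shown with their seeds (bases 2 to 8) in capitals, as the small RNA product that a change in H19 could bear on; mature microRNAs were not measured.

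hsa-miR-675-5p: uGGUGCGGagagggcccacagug

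hsa-miR-675-3p: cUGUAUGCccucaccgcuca

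The promoter window of H19 (chr11:2001217-2001516, minus strand, GRCh38.p14) held 6 CpG in 300 bases, which 66.3% of all windows equal or exceed. DNA methylation was not measured in these samples.

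H19 promoter: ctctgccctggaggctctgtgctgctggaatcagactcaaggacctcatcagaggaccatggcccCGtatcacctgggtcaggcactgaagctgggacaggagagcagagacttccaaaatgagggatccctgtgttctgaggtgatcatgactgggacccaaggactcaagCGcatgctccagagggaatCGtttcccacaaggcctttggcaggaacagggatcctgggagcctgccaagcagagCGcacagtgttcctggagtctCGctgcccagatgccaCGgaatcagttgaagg

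H19 had 135 counts in control JJ012, 6 after melatonin, 1 in control 143B and 2 after melatonin. It fell 18.9-fold in JJ012 (log2 ratio -4.24, -5.71 to -3.08), and only 40 of the 17527 genes had a lower ratio. In 143B both libraries were at or under the floor of 3 counts, and no fold is given. IGF2, the growth factor gene that shares its enhancers, was named as a neighbour after its values were seen. It had 126 counts in control JJ012, 46 after melatonin, 4090 in control 143B and 3841 after melatonin, and it fell in JJ012 (-1.20). IGF2 was thus high in 143B, where H19 was at the floor, and low in JJ012, where H19 was counted in the control. Within JJ012 both fell after melatonin, and the parental copies were not told apart.

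KCNQ1OT1 had 455 counts in control JJ012, 1117 after melatonin, 4629 in control 143B and 6102 after melatonin. It rose 2.92-fold in JJ012 (log2 ratio 1.55, 1.39 to 1.71), and its log2 ratio was 0.29 (0.23 to 0.34) in 143B. KCNQ1, which overlaps all of its length on the other strand, had at most 9 counts in any library. CDKN1C, a cell cycle inhibitor of the same domain that KCNQ1OT1 is known to silence, fell in both lines. In JJ012 it went from 36 to 16 counts (log2 ratio -0.92, -1.87 to -0.03), with an interval that nearly reaches 0. In 143B it went from 239 to 155 counts (-0.74, -1.04 to -0.44). PHLDA2 and SLC22A18, of the same domain and named to set beside CDKN1C, passed in neither line. Their log2 ratios were 0.40 and 0.09 in JJ012, and 0.09 and 0.23 in 143B. Between the controls CDKN1C was 8.03-fold lower in JJ012, where KCNQ1OT1 was lower as well. Silencing was not tested.

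Of the measured genes listed around H19 and KCNQ1OT1, 5 of 10 fell in JJ012 and none of them rose (median -0.43). They were listed for lying in or near the imprinted domain, and imprinting was not measured. Of all genes in JJ012, 28.0% fell and 21.7% rose, so that 49.7% passed in either direction. In 143B 1 of 9 fell, where 9.24% of all genes fell. TRPM5, an ion channel gene, went from 25 to 3 counts in JJ012, with a log2 ratio of -2.81 and a wide interval from -5.18 to -1.09. NAP1L4, a histone chaperone gene at the edge of the domain and the most abundant, had log2 ratios of 0.27 and -0.07. Around MEG3, 1 of 7 listed neighbours reached 20 counts. This was BEGAIN, which fell in JJ012 (-0.81) and had a log2 ratio of -0.52 in 143B.

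**Figure D4:**
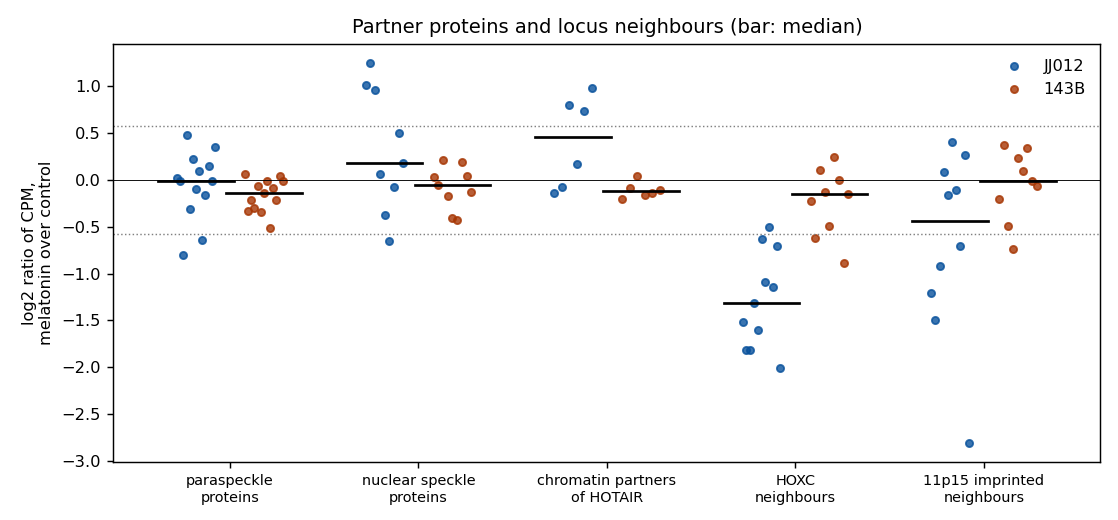
Log2 ratio of CPM, melatonin over control, of the measured genes in 5 lists of partner proteins and locus neighbours; each point is a gene, black bars mark medians and dotted lines the threshold of 0.58; blue, JJ012; brown, 143B. The HOXC neighbours stand lowest in JJ012, with a median of -1.31, while the paraspeckle proteins centre on -0.01.

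The melatonin ratios differed between the lines. The log2 ratio in JJ012 less that in 143B was 1.64 (Wald 95% interval 1.46 to 1.81) for MALAT1, 1.51 (1.24 to 1.77) for PVT1, 1.26 (1.09 to 1.43) for KCNQ1OT1, 0.97 (0.93 to 1.01) for NORAD and -2.07 (-2.89 to -1.25) for HOTAIR. Smaller differences were found for DANCR (0.44), TUG1 (0.38) and NEAT1 (0.32). All 8 exceeded counting error. Variation between cultures, which would be needed to test a difference of response, was not measured.

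Between the untreated lines, which are the same control libraries as above, 4 of 9 RNAs were higher in JJ012 and 2 were lower. Of all 18668 genes 76.2% passed the threshold (48.3% higher and 27.9% lower in JJ012), with a median log2 ratio of 0.49 toward JJ012, so that passing it sets no gene apart. NEAT1 was 15.05-fold higher in JJ012 (14.6 to 15.5) and HOTAIR 14.2-fold higher (9.82 to 21.3). H19 had 135 counts against 1, a ratio of 112 with a counting interval from 19.7 to 4441, the count in 143B being under the floor. MALAT1 was 1.69-fold higher, although with TMM, DESeq2 or TPM scaling it no longer passed. KCNQ1OT1 was 12.3-fold lower in JJ012 (11.2 to 13.6) and NORAD 3.05-fold lower (2.98 to 3.13). After melatonin the JJ012 levels of NORAD (176.23 FPKM) and KCNQ1OT1 (0.75 FPKM) were nearer to those of 143B than in the control, but still lower.

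Several features of the libraries moved with the ratios in JJ012. Longer genes had higher ratios. The Spearman correlation across 17527 genes, which share the same libraries, was 0.25 between exonic length and log2 ratio, and it was -0.05 in 143B. At the length of KCNQ1OT1 the running median was 0.41, at that of PVT1 0.40, NEAT1 0.38, MALAT1 0.21, NORAD -0.01, HOTAIR -0.23 and H19 -0.30. Less this median, the log2 ratio was 1.67 for MALAT1, 1.14 for KCNQ1OT1, 0.90 for NORAD, 0.66 for PVT1, 0.27 for NEAT1, -2.10 for HOTAIR and -3.94 for H19.

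**Figure D5:**
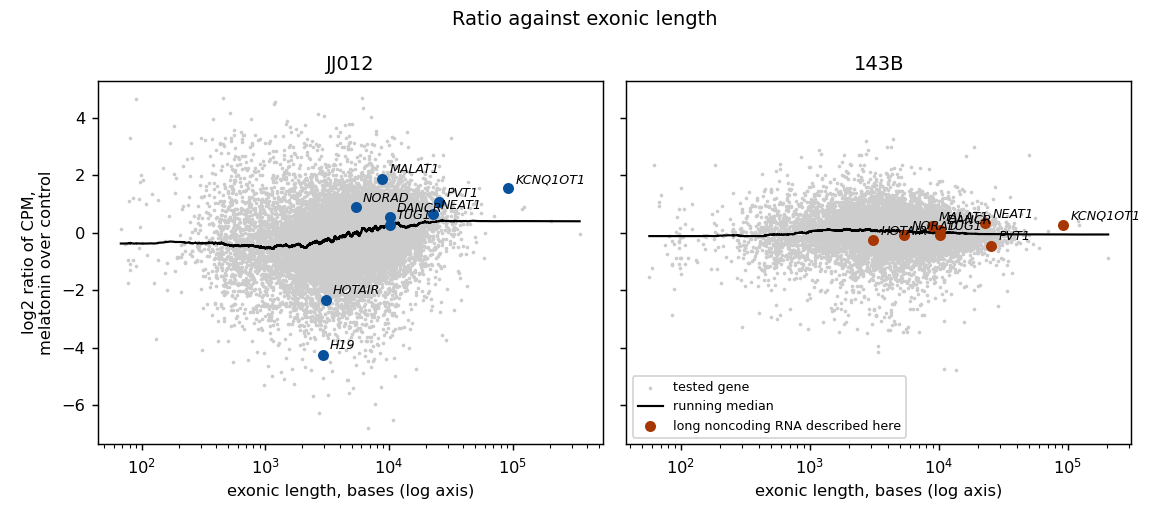
Log2 ratio of CPM, melatonin over control, of every measured gene (grey) against its exonic length in bases on a log axis, with the running median (black) and the long noncoding RNAs described here (coloured), in JJ012 (left) and 143B (right). In JJ012 the median climbs to 0.41 at the longest genes, and MALAT1, KCNQ1OT1, HOTAIR and H19 lie well away from it; in 143B it stays near 0.

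Rare RNAs also fell more often than abundant ones in JJ012. Of 5395 genes with a mean below 5 CPM 48.3% fell and 18.8% rose, whereas of 2329 genes at 100 CPM or more 15.5% fell and 28.2% rose. H19 belongs to the first class, and its part in this trend was not tested. Markers of other cell types were lower after melatonin as well. Of 10 epithelial, endothelial and immune markers, 7 reached 20 counts in JJ012 and 6 of them fell, and their summed level went from 59.8 to 22.1 CPM. The largest part of that sum was CD3E, which went from 497 to 141 counts in JJ012 (25.9 to 8.73 CPM). CDH1 had at most 1 count in any library, and CD3E and CDH5 had 0 in 143B. There the sum went from 24.2 to 20.7 CPM. In JJ012 all 4 measured chondrocyte markers fell (summed level 83.4 to 32.7 CPM), as did 2 of 5 osteoblast markers, among them COL1A1 (1891 to 112 counts). Over all genes in JJ012 28.0% fell, and 28.9% of those with a mean of 5 to 20 CPM. In 143B, 1 of 5 chondrocyte markers rose and 2 fell, and 1 of 6 osteoblast markers rose and 1 fell. The shares over all genes in 143B were 11.3% upward and 9.24% downward. The part of these cell-type markers in the values of HOTAIR, H19 and the other RNAs was not tested.

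Genes listed as making RNA without a poly(A) tail, which oligo(dT) beads should leave behind, gave a further measure. Of 18 such genes in the table, 4 reached 20 counts in JJ012 and 0 passed the threshold, and their summed level went from 330 to 267 CPM. In 143B it went from 120 to 93.1 CPM, and 1 of 3 measured genes rose (RN7SL1, 0.74) and 1 fell (H1-2, -0.88). Over all genes, 49.7% passed in JJ012 and 20.5% in 143B. The sum in control JJ012 came mostly from H2AC6 (142 CPM), H1-2 (119) and RN7SL1 (65.6). RN7SK, RMRP and RPPH1 had 0 counts in every library. Whether the counted RNA lacked a tail was not tested.

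Among 32 other widely studied long noncoding RNAs in the table, 25 were measured in JJ012, of which 8 rose and 8 fell, with a median of 0.16, and 61.4% of all long noncoding genes passed there. In 143B 23 were measured, of which 2 rose and 5 fell, and 40.1% of all long noncoding genes passed there. LINC-PINT, a nuclear RNA regulated by p53, showed the largest change of them in JJ012 (180 to 582 counts, 1.94). GAS5, a host of small nucleolar RNAs with the highest FPKM of the list, rose in JJ012 (0.84) and had a log2 ratio of -0.17 in 143B. HULC went from 5 to 35 counts in 143B (2.70), with an interval from 1.34 to 4.41.

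The genes whose pattern over the 4 libraries lay nearest to that of each RNA were found by the Euclidean distance between centred log2(CPM + 1) values among 19200 genes. For MALAT1 these were EPS15L1 (distance 0.16) and ANKRD50 (0.17), for NEAT1 IL18 (0.14) and ZNF28 (0.21), for HOTAIR AKR1B10 and PRDX4 (both 0.16) and for H19 the unnamed gene ENSG00000288775 (0.11) and TG (0.15). For PVT1 they were GARS1 (0.06) and ZNF292 (0.10), for KCNQ1OT1 SLC2A3 (0.06) and SPRY4 (0.21), for TUG1 TOP3B and SLC44A1 (both 0.03), for NORAD ERI3-IT1 (0.04) and IGSF6 (0.07), and for DANCR C2orf16 (0.0039) and GNL2 (0.03). Some of these genes were rare, and adding 1 CPM shrinks the ratios of rare genes, so that a near match need not mean the same fold. ERI3-IT1 had 4 counts and IGSF6 had 3 in control JJ012. IL18 and ZNF28 had 3 each in control 143B, and ENSG00000288775, TG and AKR1B10 had 0 in 143B. With 4 libraries such a match describes these samples only.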

How the data were processed

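Per the labels, RNA from JJ012 and 143B cells (control, or 1 mM melatonin for 72 h) was selected on oligo(dT) beads and sequenced as paired ends. The submitters' processing notes name cutadapt 1.9.1, HISAT2 2.2.1, HTSeq 0.6.1, DESeq2 and the build hg38. The strand setting and annotation release are not given in the sources used here. The counts were deposited as whole numbers for each gene and library, not normalized. The deposited FPKM equal these counts divided by exonic length and by the column total. Columns were matched to samples by cell line, and the suffix T was read as melatonin.

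CPM were computed over library totals of 15889564 to 19218343 counts. A log2 ratio of at least 0.58 in size, among genes with at least 20 counts in 1 library of a pair, was called, with a floor of 3 counts and exact 95% intervals for counting error only. PCR duplicates were not marked by molecular identifiers. Without replicates no test was made. The running median over exonic length used 501 genes. Alternatives were TMM (edgeR 4.0.16), DESeq2 1.42.0 size factors, TPM, totals without mitochondrial genes, other count filters, FPKM with pseudocounts of 1 and 0.1, and a threshold of 1. An alternative length for levels was added after seeing the data. Gene types and transcripts came from GENCODE 29. Promoters (6 of 10 RNAs matched) and microRNAs came from RefSeq (GRCh38.p14).

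The 10 RNAs and the 14 gene lists were chosen with earlier results of these data known. All 10 RNAs are named. From each list of neighbours, partners or other RNAs the text names the gene with the highest mean FPKM and those with the largest absolute log2 ratio in either line, plus others where a count of at most 5 is spelled out or the text says so. An item that this rule would name is not reported here. The scripts were tested on simulated counts, in Python 3.11.15 with scipy 1.17.1 and R 4.3.3.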

Additional observations from a re-analysis of the deposited data

Results flagged for a closer look

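PVT1, TUG1 and NORAD had log2 ratios of opposite sign in the 2 lines, although TUG1 passed the threshold of 0.58 in neither line and PVT1 and NORAD did not pass it in 143B. The log2 ratio of melatonin over control was 1.06 in JJ012 and -0.44 in 143B for PVT1, 0.29 and -0.089 for TUG1, and 0.89 and -0.085 for NORAD. Each interval for counting error excluded 0. With 1 library per condition the difference between the lines was not tested across cultures.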

How the results depend on the processing

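No paired analysis was possible because the labels carry no replicate numbers and each condition has 1 library. In JJ012, 5 of the RNAs rose as reported, but 3 with log2(FPKM + 1), where PVT1 came to 0.56, and 3 with a threshold of 1. NEAT1 no longer passed once the trend with exonic length was removed (0.27), and DANCR passed with TMM factors and with TPM (0.82). With TPM the median of all genes shifted by 0.28, and the share of upward among called genes in JJ012 went from 43.6% to 62.0%. MALAT1, KCNQ1OT1, NORAD, HOTAIR and H19 kept their direction and stayed past 0.58 under every scaling, filter and pseudocount that could give a value. In 143B none of the RNAs passed under any alternative. Between the untreated lines, 2 RNAs were lower in JJ012 as reported and 4 with TMM factors, 4 with DESeq2 size factors and 4 with TPM, where PVT1 and TUG1 also passed and MALAT1 dropped out. These scalings moved the median of all genes by -0.35, -0.29 and -0.38, and DANCR changed sign without passing. The share of upward among called genes went from 63.4% to 53.2% with TPM and 50.3% without the length trend. The causes were not tested. Depth limits HOTAIR and H19 in 143B, and no alternative addresses variation between cultures.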
